A study of Mus musculus with 6 samples.

Results

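Poly(A)-binding proteins and the proteins that regulate them (PAIPs) were followed at the mRNA level in mouse zygotes. The 8 genes were taken by symbol from the 25731 rows of the expression table: the cytoplasmic poly(A)-binding proteins Pabpc1, Pabpc1l and Pabpc4, the nuclear protein Pabpn1 and its oocyte relative Pabpn1l, and the regulators Paip1, Paip2 and Paip2b. Each symbol had 1 row, under the Ensembl identifiers ENSMUSG00000022283 (Pabpc1), ENSMUSG00000054582 (Pabpc1l), ENSMUSG00000011257 (Pabpc4), ENSMUSG00000022194 (Pabpn1), ENSMUSG00000069867 (Pabpn1l), ENSMUSG00000025451 (Paip1), ENSMUSG00000037058 (Paip2) and ENSMUSG00000045896 (Paip2b). RNA came from pools of 13 wild-type zygotes at the pronuclear stage (adult B6C3F1 mothers, CD1 fathers), lysed 10 h after microinjection at 15 h after hCG. All zygotes received mRNA for Trim21 fused to mCherry (0.2 mg/mL) and dextran beads labelled with Oregon green (0.02 mg/mL). In ZP3 Trim-away (3 libraries) the mix also held an antibody against the zona protein ZP3 (1 mg/mL), which TRIM21, a ubiquitin ligase that binds antibodies, carries to the proteasome together with its target. In the buffer control (3 libraries) it held the antibody's buffer, so the control zygotes carried no antibody of any kind. The labels name the pools as replicates without saying whether they came from separate collections, so the spread behind each p-value is that of these pools and may be technical.

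A poly(A) tail is bound along its length by poly(A)-binding protein, which also contacts the initiation factor eIF4G at the cap and thereby favours translation. PAIP1 binds poly(A)-binding protein and stimulates translation, whereas PAIP2 and PAIP2B displace it from the tail and compete with eIF4G, and so repress. Zygotes live on stored maternal mRNAs, whose tails are shortened or lengthened to turn them off or on. PABPC1L, the embryonic poly(A)-binding protein, is the form typical of mouse oocytes and early embryos, while PABPC1 is the main form of somatic cells.

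Where the tail is added is set by a hexamer near the end of the transcript, and the libraries were primed on that tail. The hexamer was therefore read from the longest coding transcript of each gene (GENCODE M21, GRCm38). The stretch of 30 bases around the hexamer is shown for 5 abundant members, 5′ to 3′ on the transcript strand, with the hexamer in capitals:
Paip1: ttagaatttgaaAATAAAacttagtttgtt
Paip2b: atccaaccaaacAATAAAgctgactgcata
Pabpc4: ctgcatatattaAATAAAtttactttccct
Pabpc1l: tttgctttatatATTAAAaaatgctgcaaa
Pabpn1l: agaatgtaaattATTAAActtgaatatatt

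Paip1 (chromosome 13), Paip2b (chromosome 6) and Pabpc4 (chromosome 4) held AATAAA in the last 50 bases, as did Paip2 (chromosome 18) and Pabpc1 (chromosome 15). The oocyte forms Pabpc1l (chromosome 2) and Pabpn1l (chromosome 8) held the variant ATTAAA instead, at 22 and 20 bases from the end. In Pabpn1 (chromosome 14) neither hexamer was found in this window. Searched on the transcript strand only, AATAAA stood in the last 50 bases of 59.5% of 21764 coding genes' longest transcripts, and ATTAAA without AATAAA in 13.0%. A cytoplasmic polyadenylation element, searched as TTTTAT or TTTTAAT in the last 150 bases, was matched in Pabpc4, 82 bases from the end, and in none of the other 7 members, against 21.6% of all these transcripts. These are matches of letters, and tail length was not measured.

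The libraries held 15291000 to 20005724 reads. In the deposited table the columns of control replicates 2 and 3 were never below 0.5 times control replicate 1 and equalled that value in 2059 and 2090 genes. They were therefore read as means with replicate 1, and control values here come from the libraries after separation. Trim21 reads, which include the injected mRNA, took 14.6 to 18.1% of reads with buffer against 9.12 to 11.0% in ZP3 Trim-away. Zp3 mRNA, whose protein was targeted, stood at 31.3, 55.6 and 39.9 RPKM and at 46.5, 58.9 and 52.7 RPKM, with overlapping groups. RPKM scales reads to the exon length of the gene and to the reads of the library, so levels of different genes can be set side by side as far as that length is the one present. The length was the sum of all annotated exons, which for every member exceeds the longest coding transcript. These lengths were 3541 and 1569 bases for Paip2, 6335 and 3982 for Paip2b, and 6540 and 2817 for Pabpc1. They were closest for Pabpn1l, at 1193 and 1148 bases.

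The 8 members spanned a wide range of levels. Pabpn1l and Paip1 led, with means of 291 and 226 RPKM over the 6 libraries, and lay above 98.9% of the genes with a value above 0 in each library. Paip2b (78.8 RPKM), Paip2 (56.1 RPKM), Pabpc1l (36.3 RPKM) and Pabpc4 (32 RPKM) followed. Pabpn1 and Pabpc1 came last, with means of 0.323 and 0.137 RPKM. Paip1 stood above Paip2b in 6 of 6 libraries and Pabpc4 above Pabpn1 in 6 of 6. In the controls Pabpn1l exceeded Paip1, Paip2 exceeded Pabpc1l and Pabpc1l exceeded Pabpc4 in 2 of 3 libraries each, so these neighbours did not differ beyond their spread. In ZP3 Trim-away each of the 3 orders held in 3 of 3 libraries, without overlap of the values for Pabpn1l over Paip1 and for Paip2 over Pabpc1l. The order of Paip2b and Paip2 depended on the group. In the controls Paip2b was higher in 3 of 3 libraries, and in ZP3 Trim-away in 1 of 3. Per base of the longest coding transcript, a scale chosen after the data were seen, 2 of these orders turned in the group means. Paip1 (318) then stood above Pabpn1l (289) in the control means, and Paip2 (177) above Paip2b (128) in those of ZP3 Trim-away. Single libraries turned as well. In Trim-away replicate 1 Paip1 (312) stood above Pabpn1l (303) and Pabpc4 (44.7) above Pabpc1l (42.1). On this scale Paip2 lay above Pabpc1l in the controls without overlap (65.7 to 88.1 against 27.6 to 46.5).

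**Figure D1:**
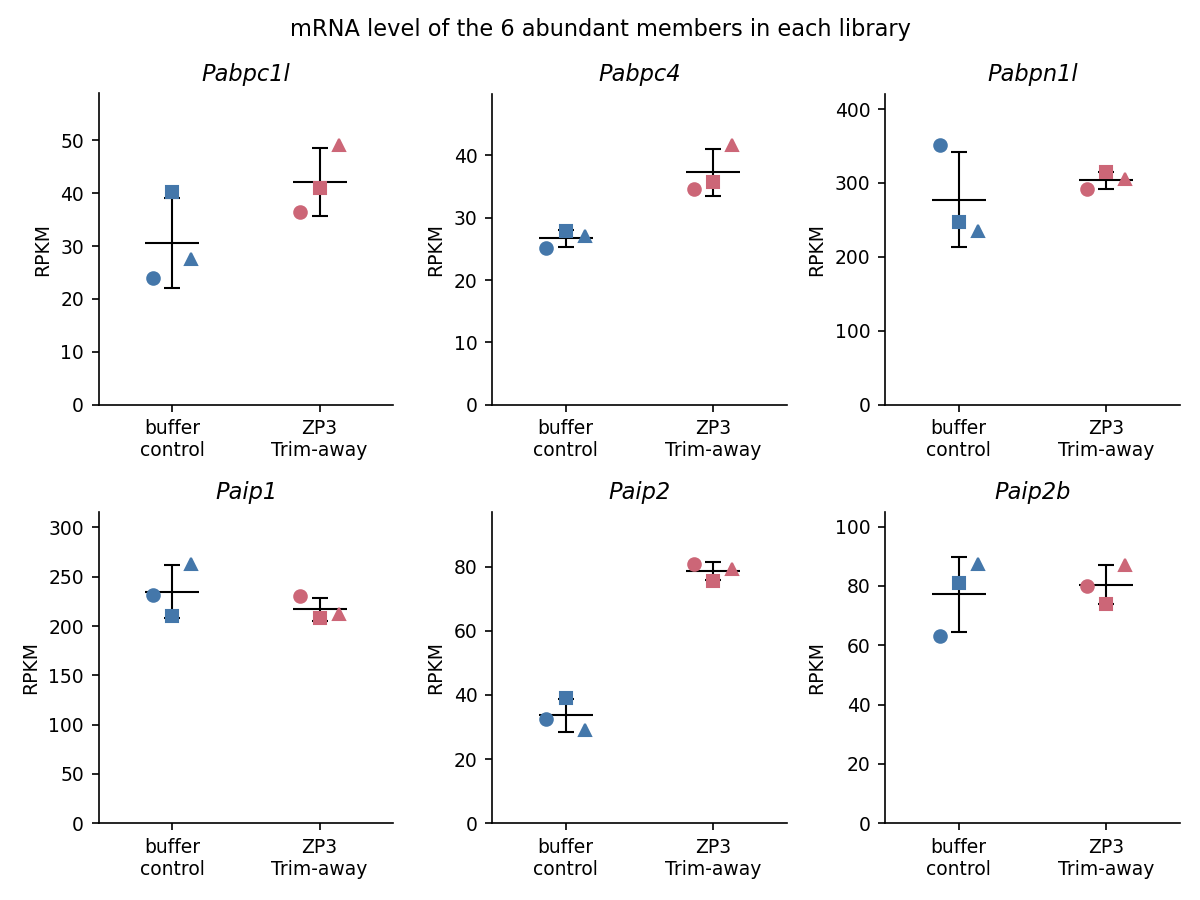
RPKM of the 6 abundant members in each library (circle, square and triangle: replicates 1, 2 and 3), with the mean and SD of each group as horizontal line and bar; each axis starts at 0. Paip2 lies between 29.1 and 39.0 RPKM in the buffer control and between 75.5 and 80.9 RPKM after Trim-away, and Paip1, Paip2b, Pabpn1l and Pabpc1l overlap between groups.

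The groups were compared gene by gene with limma on log2(RPKM + 1) over the 9965 genes whose mean reached 1 RPKM. Of the 8 members 6 entered, each above 1 RPKM in every library, and Pabpc1 and Pabpn1 did not. Of the 6, 1 passed an adjusted p of 0.05, Paip2, in the higher direction. Among all tested genes 0.592% passed as higher, 0.0401% as lower and 0.632% in either direction. The members were chosen by symbol, but as a family whose Paip2 values in these same libraries, and the call on them, were already known. Nothing is therefore read from the count, and Paip2 is described without a p. Over the whole table the log2 fold changes had a median of 0.22, and 67.3% were positive. At an unadjusted p under 0.05 stood 19.5% of the tested genes (1942), the share against which such counts in the lists are to be read.

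Paip2, which encodes the repressor that takes poly(A)-binding protein off the tail, had the largest log2 fold change of the 6 tested members. Its level was 32.6, 39.0 and 29.1 RPKM in the controls (1792 to 2766 reads) and 80.9, 75.5 and 79.3 RPKM after Trim-away (4205 to 4512 reads). The lowest Trim-away library thus lay far above the highest control, and the 3 Trim-away libraries lay closer together than the controls. The mean went from 33.6 ± 5.03 to 78.6 ± 2.78 RPKM (SD, n = 3 each), a ratio of 2.34. On the log2 scale the difference was 1.21 ± 0.15 (SE), with a 95% interval of 0.88 to 1.55, or 0.99 above the median of all genes. It was 1.01 with median ratio scaling and 1.12 to 1.32 when any 1 library was left out. Its call was lost with median ratio scaling, with the replicate number as a block and with no filter (1.21 for the last 2). It was also lost without any 1 Trim-away library, when no gene of the table passed. As the samples are pools of whole zygotes, a change in some of the 13 zygotes and a smaller change in all of them cannot be told apart.

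Paip2b, the close relative of Paip2 with the same action on poly(A)-binding protein, stood at 63.1, 81.1 and 87.4 RPKM with buffer against 80.1, 73.9 and 87.1 RPKM after Trim-away. All 3 Trim-away values lay inside the range of the controls. The log2 fold change of 0.07 ± 0.15 (limma adjusted p = 0.842, interval -0.28 to 0.42) turned negative with median ratio scaling (-0.13), quantile normalization (-0.14), Trim21 reads left out (-0.039) and without control replicate 1 (-0.069). The first 3 of these settings lower the table as a whole, with the median of all genes at 0.057, -0.013 and 0.14 in place of 0.22, so a gene near 0 turns with them. The interval of Paip2b lay wholly below that of Paip2, which was known to stand apart when the genes were chosen, so this is a description.

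Within a library the ratio of Paip2 to Paip2b does not depend on the scaling between libraries. It was 0.517, 0.481 and 0.333 with buffer against 1.01, 1.02 and 0.91 in ZP3 Trim-away. The ratio was higher in each Trim-away library than in any control. Which of the pair was the more abundant depended on the length used. Per base of the longest coding transcript the ratio was 0.734, 0.683 and 0.472 in the control libraries and 1.43, 1.45 and 1.29 in the Trim-away libraries. The summed level of Paip2 and Paip2b was 95.7, 120 and 117 RPKM with buffer against 161, 149 and 166 RPKM after Trim-away. The share of Paip2 in the summed RPKM of the 8 members was 4.35 to 6.06% with buffer against 10.1 to 10.7% in ZP3 Trim-away. These ratios, the sum and the share all hold the Paip2 difference that was known beforehand, so they are descriptions and no further result.

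Paip1, the activator among the regulators, went against the general trend of the table without passing the test. It stood at 232, 210 and 263 RPKM with buffer against 230, 209 and 212 RPKM after Trim-away. The groups overlapped, with the 1 control library at 263 RPKM above all others. The log2 fold change was -0.11 ± 0.11 (limma adjusted p = 0.64, interval -0.37 to 0.15), or -0.33 relative to the median of all genes, and it was negative under each setting tried, from -0.32 to -0.026. The ratio of Paip1 to the summed repressors Paip2 and Paip2b was 2.42, 1.75 and 2.26 with buffer against 1.43, 1.4 and 1.27 in ZP3 Trim-away. The groups did not overlap, but this ratio also holds the known Paip2 difference and is a description.

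**Figure D2:**
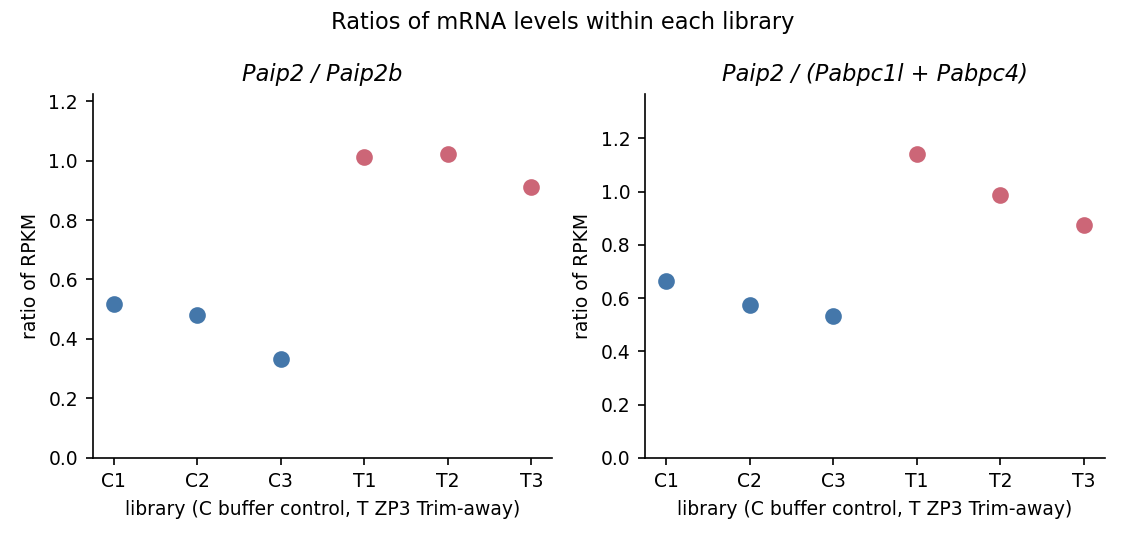
Ratios of RPKM within each library (C1 to C3, buffer control; T1 to T3, ZP3 Trim-away) for Paip2 over Paip2b and for Paip2 over the sum of Pabpc1l and Pabpc4; axes start at 0. The first ratio is 0.333 to 0.517 with buffer against 0.91 to 1.02 in ZP3 Trim-away, and the second 0.533 to 0.665 and 0.875 to 1.14.

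The cytoplasmic poly(A)-binding proteins Pabpc4 and Pabpc1l had similar estimates, and neither passed. Pabpc4, a cytoplasmic form first described in activated T cells, stood at 25.2, 27.8 and 27.1 RPKM with buffer against 34.6, 35.7 and 41.6 RPKM after Trim-away. The groups did not overlap. Higher without overlap were 2 of the 6 tested members, Paip2 and Pabpc4, beside 20.3% of all tested genes, and none was lower without overlap, beside 6.34%. The log2 fold change of Pabpc4 was 0.46 ± 0.15 (limma adjusted p = 0.149, interval 0.12 to 0.81), which is 0.25 above the median of all genes, and it fell to 0.27 with median ratio scaling.

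Pabpc1l, the embryonic form, varied more among the controls, with 23.9, 40.2 and 27.6 RPKM against 36.4, 40.9 and 49.0 RPKM after Trim-away. Control replicate 2 lay within the range of the Trim-away libraries and the other controls below it. The log2 fold change was 0.47 ± 0.22 (limma adjusted p = 0.272, interval -0.02 to 0.96), and it was 0.68 without that control and 0.32 without control replicate 1. With the columns as deposited, in which control replicate 1 is counted into each control, Pabpc1l and Pabpc4 both passed (0.61, limma adjusted p = 0.0107, and 0.50, adjusted p = 0.00784), as did 25.5% of all genes in that direction and 37.3% in either. Neither call is kept with the separated libraries.

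The ratio of Pabpc1l to Pabpc4 was 0.948, 1.45 and 1.02 with buffer against 1.05, 1.15 and 1.18 in ZP3 Trim-away, or 0.847 to 1.29 and 0.942 to 1.05 per base of the longest coding transcript. Their sum was 49.1, 68.1 and 54.6 RPKM with buffer against 71.0, 76.6 and 90.7 RPKM after Trim-away. Paip2 over this sum was 0.665, 0.574 and 0.533 with buffer against 1.14, 0.985 and 0.875 in ZP3 Trim-away. This ratio was higher in all 3 Trim-away libraries than in any control. The same held per base of the longest coding transcript (0.982 to 1.22 and 1.62 to 2.1). It holds the Paip2 difference, which was known when the genes were chosen, so it is a description and no further result.

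Levels of Pabpc4 carry a limit of their own. Of the 3040 windows of 72 bases, the read length, in its longest coding transcript, 1836 (60.4%) were also found, base for base, in transcripts of 10 other annotated genes, 9 of them pseudogenes. Reads that fit several places are commonly left out by gene counters, so the RPKM of Pabpc4 may understate its level. Most of the shared windows (1768) were those of Gm10110, a transcribed processed pseudogene on chromosome 14, chosen after its values were seen. Gm10110 was listed at 1.56, 1.91 and 1.95 RPKM with buffer against 2.78, 2.82 and 3.35 RPKM after Trim-away (a log2 difference of 0.51 ± 0.3, limma adjusted p = 0.388). Its ratio to Pabpc4 was 0.0617, 0.0686 and 0.072 with buffer against 0.0805, 0.0791 and 0.0805 in ZP3 Trim-away, without overlap. Paip1, Paip2, Paip2b, Pabpc1l and Pabpn1l had no such window in any other annotated gene.

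Pabpn1l encodes a poly(A)-binding protein of oocytes that, in mouse, takes part in the clearance of maternal mRNAs together with BTG4. It was the most abundant member, at 351, 247 and 235 RPKM with buffer against 292, 315 and 305 RPKM after Trim-away. Control replicate 1 stood above and the other 2 controls below all Trim-away libraries. The log2 fold change was 0.15 ± 0.15 (limma adjusted p = 0.625, interval -0.19 to 0.5), and it turned with the columns as deposited (-0.045), median ratio scaling (-0.048), quantile normalization (-0.058) and the trend with exon length removed (-0.0011). Its exons sum to 1193 bases, the shortest of the members, against a median of 3626 bases for all tested genes, and across genes log2 fold changes fell with exon length (Spearman's rho = -0.3 over 9858 genes, which share the 6 libraries and are not replicates). Paip2 had 3541 bases of summed exons and 1569 bases in its longest coding transcript. Its difference was 1.23 with the length trend removed, a setting that used summed exons. The part of transcript length in this difference was not tested.

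**Figure D3:**
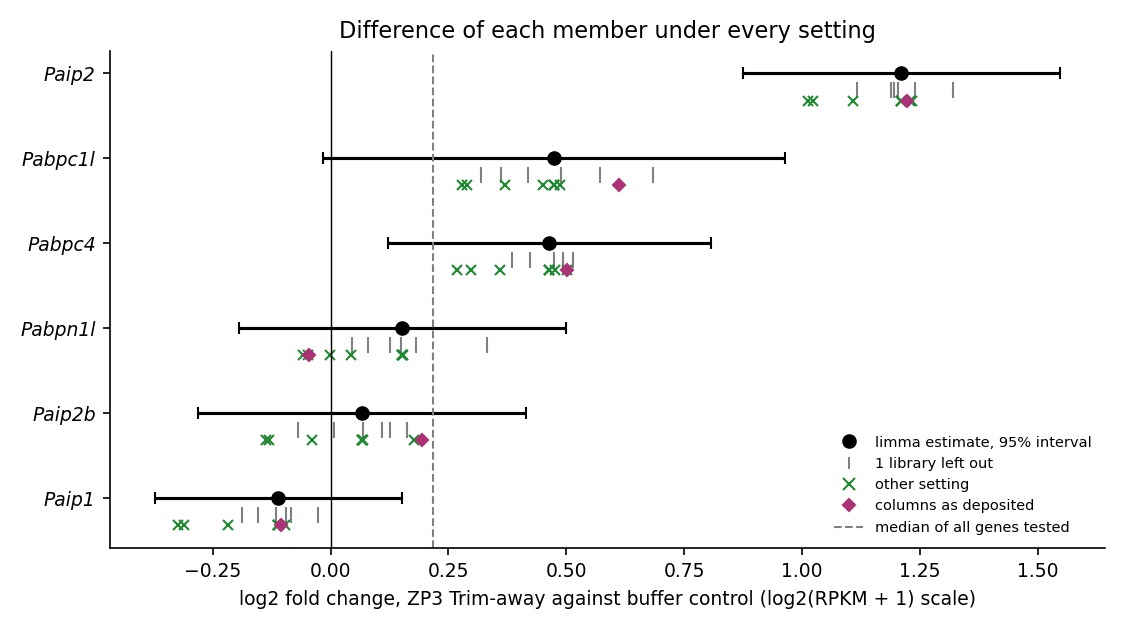
Log2 fold change (ZP3 Trim-away against buffer control, log2(RPKM + 1) scale) of the 6 tested members: limma estimate with 95% interval (circle and bar), values with 1 library left out (ticks), values under other settings (crosses) and with the columns as deposited (diamonds). The dashed line is the median of all tested genes, 0.22. All values of Paip2 lie between 1.01 and 1.32, and those of Paip2b and Pabpn1l fall on both sides of 0.

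Pabpc1, the somatic cytoplasmic form, and Pabpn1, which binds the growing tail in the nucleus and sets its length, were close to the limit of detection. Pabpc1 had 3, 6 and 0 reads with buffer against 46, 14 and 17 reads after Trim-away, or at most 0.0459 and 0.447 RPKM. Pabpn1 had 3, 14 and 9 reads against 25, 20 and 25, or at most 0.231 and 0.539 RPKM. For both genes every Trim-away library lay above every control, as in 13.0% of the 15766 genes with a mean under 1 RPKM. Pooled reads, scaled to the library totals, were 10.2 times as high for Pabpc1 in ZP3 Trim-away (exact 95% interval 5.12 to 23.2) and 3.22 times for Pabpn1 (2.03 to 5.27). These intervals cover counting error only, and amplified reads are not independent molecules.

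The size of these ratios depended on single libraries. Without Trim-away replicate 1, which gave 46 of its 77 reads, the ratio of Pabpc1 was 6.21, and without control replicate 2 it was 19.7. The ratio of Pabpn1 was 2.43 without control replicate 1 and 4.48 without control replicate 2. With no filter no gene of the 25731 passed in limma (3323 at an unadjusted p under 0.05), Pabpc1 and Pabpn1 included, so this fit gives nothing particular to them. In the same libraries 13202 to 14501 genes were listed above 0 with buffer against 18794 to 20316 in ZP3 Trim-away, although the latter had fewer reads. The part of this in the values of Pabpc1 and Pabpn1 was not tested.

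Of the windows in the longest coding transcript of Pabpc1, 12.1% were shared with 2 processed pseudogenes, and of those of Pabpn1, 23.8% (406 windows), all of them with Gm20521, an annotated coding gene on the same chromosome that was not analysed here. A larger part of either transcript was free of exact copies. As for Pabpc4, reads in shared windows may be left out, so the RPKM of Pabpc1 and Pabpn1 may understate their levels. Near-identical copies were not counted, and their part in these low values was not tested. Of 6 further genes of the family, Pabpc4l was listed at 0 to 0.851 RPKM and Pabpc6 at 0 in all libraries but 1 (0.434 RPKM), and the other 4 were not analysed here.

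**Figure D4:**
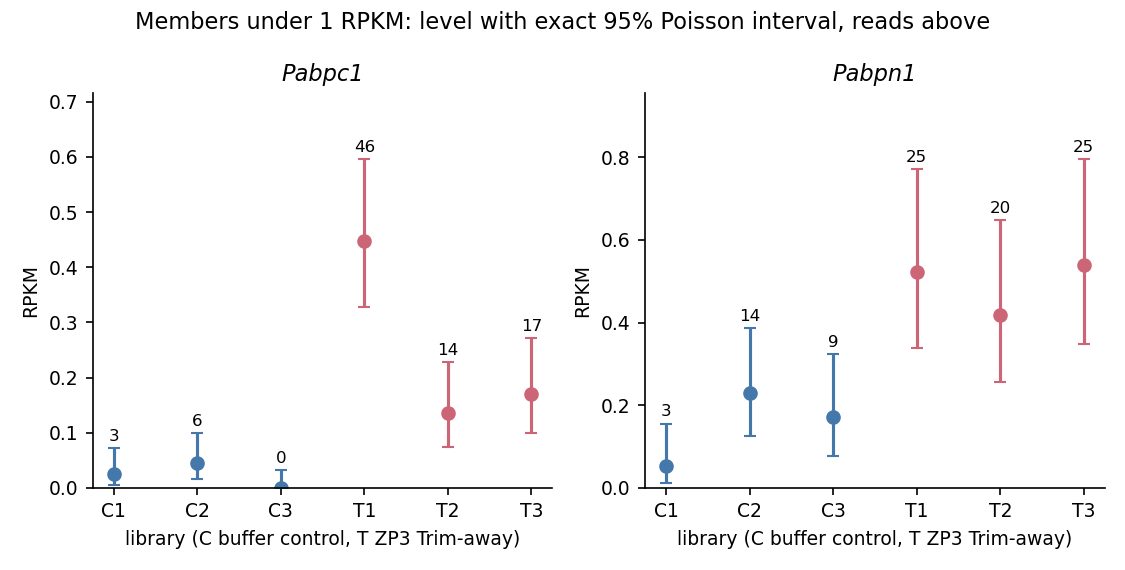
RPKM of Pabpc1 and Pabpn1 in each library (C1 to C3, buffer control; T1 to T3, ZP3 Trim-away) with exact 95% Poisson intervals as bars and the number of reads above each bar; axes start at 0. Pabpc1 has 0 to 6 reads with buffer against 14 to 46 in ZP3 Trim-away, and Pabpn1 3 to 14 and 20 to 25.

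In 3 lists of genes that work with the tail and its binding proteins, no gene passed the test in the main fit. Among the alternatives, 1 initiation factor passed as higher without control replicate 2. In the list of tail synthesis 1 gene passed as lower where only genes reaching 10 RPKM were kept. With the columns as deposited, genes of all 3 lists passed. The first list held proteins that bind cytoplasmic poly(A)-binding protein or act with it, among them deadenylase subunits, release factors and GW182 proteins. Of its 19 genes 16 were tested, none passed (3 at an unadjusted p under 0.05, smallest limma adjusted p = 0.175), 5 were positive and 11 negative, and the median log2 fold change was -0.20 against 0.22 for all genes. That median was 0.03 with the length trend removed and 0.08 where only genes reaching 10 RPKM were kept (all genes 0.23 and 0.20). It was -0.35 with median ratio scaling and -0.36 with quantile normalization (all genes 0.057 and -0.013). Larp4b, which encodes a La-related protein, had 30.7 ± 4.88 and 28.3 ± 4.07 RPKM, and Pan2, the catalytic subunit of the PAN2-PAN3 deadenylase, had 27.4 ± 8.3 and 24 ± 1.84 RPKM (SD, n = 3 each).

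The second list held the initiation factors that join cap and tail. All 11 were tested, none passed (2 at an unadjusted p under 0.05, smallest limma adjusted p = 0.16), 8 were positive and 3 negative, and the median was 0.11, or -0.067 with median ratio scaling and -0.11 with quantile normalization. Eif4e1b, the cap-binding protein of oocytes, stood at 310 ± 32.8 and 326 ± 10.8 RPKM, and Eif4a1, the initiation helicase, at 164 ± 15.3 and 192 ± 4.35 RPKM, without overlap.

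The third list held genes of tail synthesis and of cleavage of the 3′ end. Of 24 genes 19 were tested and none passed in limma (1 at an unadjusted p under 0.05), with 11 positive, 8 negative and a median of 0.23. The median was -0.077 with quantile normalization and -0.01 where only genes reaching 10 RPKM were kept. Cpsf2, of the cleavage and polyadenylation factor, stood at 36.4 ± 6.97 and 34.8 ± 3.27 RPKM and Fip1l1, of the same factor, at 31.5 ± 3.82 and 31.1 ± 1.8 RPKM. The smallest adjusted p was that of Tent4a, a noncanonical poly(A) polymerase chosen after its values were seen, at 22.8, 18.2 and 21.4 RPKM with buffer against 11.5, 11.8 and 13.5 RPKM after Trim-away (a log2 difference of -0.71 ± 0.18, limma adjusted p = 0.0887).

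**Figure D5:**
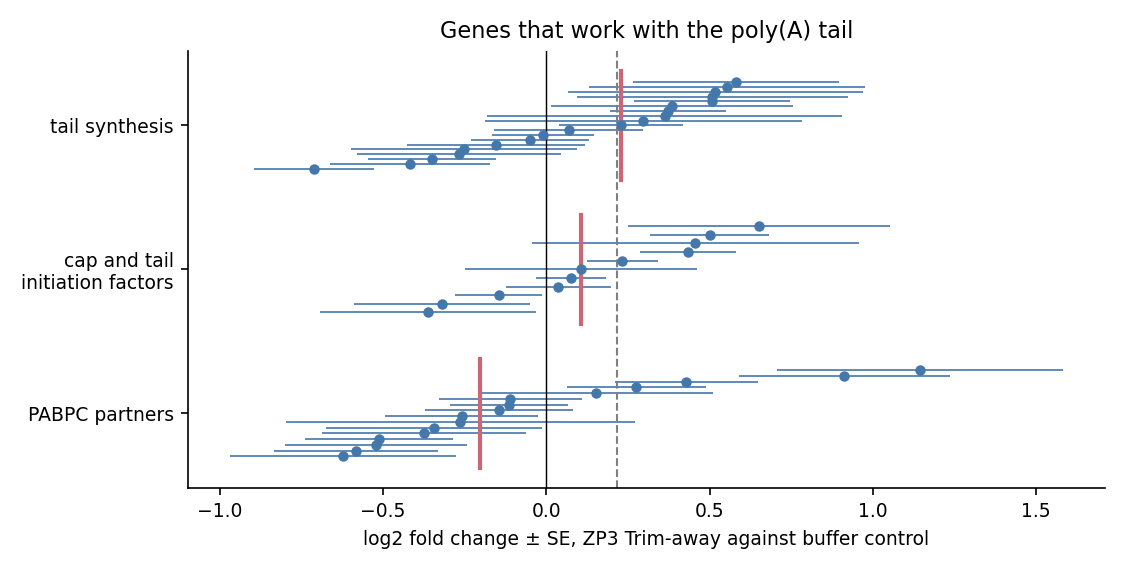
Log2 fold change ± SE of each tested gene (points and bars) in the 3 lists of genes that work with the tail, with the median of each list (red line) and of all tested genes (dashed line, 0.22). No gene of the 3 lists passed the test in the main fit. The list medians are -0.20 for partners of poly(A)-binding protein, 0.11 for initiation factors and 0.23 for tail synthesis.

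The genes whose levels followed Paip2 most closely over the 6 libraries were Skp1, a subunit of SCF ubiquitin ligases (Pearson's r = 0.998), Sfr1, a recombination factor (0.995), and Kpna2, an importin alpha (0.994), among 3444 genes whose mean reached 10 RPKM. Each was higher in all 3 Trim-away libraries than in any control, so the likeness rests largely on the difference between groups that these genes share. Kpna2, for example, stood at 299, 319 and 271 RPKM with buffer against 472, 494 and 484 RPKM after Trim-away. The genes closest to Pabpc1l were Rabif (r = 0.99), Max (0.986) and Car9 (0.977), which had, like Pabpc1l, their highest control value in replicate 2.

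Markers of the zygote were abundant in all pools, with Dppa3 at 4215 ± 634 and 5680 ± 757 RPKM and Btg4 at 1656 ± 129 and 2048 ± 201 RPKM. Of 8 zygote markers 7 had a positive log2 fold change, none passed in limma (6 at an unadjusted p under 0.05), and their median was 0.35. Markers of cumulus cells, which surround the egg and were removed before culture, summed to 13.9, 4.9 and 4.97 RPKM with buffer against 11.6, 13.5 and 13.1 RPKM after Trim-away. Of the 8 cumulus markers with values, 4 to 6 were at 0 in each control and 1 or 2 in each Trim-away library. Without Nr5a2, a nuclear receptor of granulosa cells that early embryos also express, the sums were 7.55, 0.404 and 1.86 RPKM for the controls and 6.31, 9.15 and 8.79 RPKM for ZP3 Trim-away. Nr5a2 itself stood at 4.64 ± 1.61 and 4.64 ± 0.549 RPKM. Of the 8 none passed in limma (1 of 3 tested at an unadjusted p under 0.05). Tnfaip6, of the expanded cumulus matrix, was at 0, 0 and 1.68 RPKM against 3.57, 6.95 and 6.92 RPKM (limma adjusted p = 0.0601), while Foxl2 was at 0 in all libraries but 1 (0.02 RPKM). Inhba was at 5.43, 0 and 0.018 RPKM with buffer against 1.06, 1.36 and 1.27 RPKM after Trim-away. The 2 group means were 0.726 and 0.654 RPKM for Ptgs2 and 0.117 and 0.114 RPKM for Cd44. For Has2 the means were 0.0543 and 0.148 RPKM, and for Fshr 0 and 0.117 RPKM. The sums thus overlapped between groups. Control replicate 1 had the highest sum with Nr5a2, and without Nr5a2 it stood above Trim-away replicate 1. The markers did not all go the same way. The part of other cells in the values of Paip2 and the other members was not tested.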

How the data were processed

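Total RNA of 6 pools was converted to libraries with a low-input kit primed on poly(A) tails. Per the labels and the methods, the authors checked single 72-base reads with FastQC 0.11.9, trimmed them with Trimmomatic, aligned them with HISAT2, sorted them with SAMtools and counted them per gene with htseq-count. The deposited values are RPKM, listed by Ensembl identifier. The methods also describe averages over identifiers of the same symbol and over replicates. The labels name GRCm39 and the methods GRCm38, so no coordinates are printed. Strand use in counting is not given in the sources used here.

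Control libraries 2 and 3 were taken as 2 times the deposited column minus control 1, which left 0 genes negative. RPKM multiplied by exon length (GENCODE M21; 24959 genes) gave each library's total, with 95.0 to 96.0% of values within 0.01 of a whole read, against 9.6 and 9.02% for columns 2 and 3 as deposited. A count of 0 allows up to 3 reads, 0.15 to 0.196 RPKM at 1 kb. Differences were tested with limma 3.58.1 (R 4.3.3, trended prior, two-sided) on log2(RPKM + 1), a scale that understates changes of low genes, for genes whose mean reached 1 RPKM, with Benjamini-Hochberg adjustment over all genes. The fit was also run on simulated independent normal noise with changes added to some genes. That simulation lacked the general trend of this table, so it cannot show how the fit handles it. Python 3.11.15, pandas 2.3.3 and numpy 2.4.6 were used. The members and lists were chosen with earlier results of these data known. Named genes were the members, Trim21 and Zp3, the 2 most abundant and all called genes of each list, and the 3 genes most like Paip2 and Pabpc1l. Outside this rule, Gm10110, Tent4a and the cumulus markers Foxl2, Inhba, Ptgs2, Cd44, Has2 and Fshr were named after their values were seen. Alternatives covered the control columns, pseudocount, filter, scaling, exon length, replicate block and each library left out. Transcript length in place of exon length, and cumulus markers without Nr5a2, were added after seeing the data.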

Additional observations from a re-analysis of the deposited data

How the results depend on the processing

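Over all genes 63 passed in limma (59 higher, 4 lower). The columns as deposited gave 3707 (2537 higher, 1170 lower), a mean of at least 10 RPKM 368 (312 higher, 56 lower), a pseudocount of 0.1 19 (17 higher), median ratio scaling 12 (9 higher, 3 lower), quantile normalization 24 (18 higher, 6 lower), Trim21 reads left out 19 (16 higher, 3 lower) and the length trend removed 36 (33 higher). No gene (0) passed with no filter or with the replicate block (3323 and 1733 genes at an unadjusted p under 0.05). With 1 library left out the count ranged from 0 to 279, and it was 0 without any 1 Trim-away library (1130 to 1268 genes at an unadjusted p under 0.05).

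The median log2 fold change of all genes went from 0.22 to 0.057 with median ratio scaling and -0.013 with quantile normalization.

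Paip2 kept its direction under all alternatives and did not pass with no filter (1.21), median ratio scaling (1.01), the replicate block (1.21) or without any 1 Trim-away library; with 1 library left out its log2 fold change was 1.12 to 1.32. Whether the replicate numbers pair the samples is not known. Deviations of same-numbered libraries correlated at -0.061, 0.019 and -0.053, and those of differently numbered libraries at -0.036 to 0.091. With 3 libraries per group this cannot settle whether pools shared a collection. Paip2b turned with median ratio scaling (-0.13), quantile normalization (-0.14), Trim21 reads left out (-0.039) and without control replicate 1 (-0.069), with a range of -0.069 to 0.16 when 1 library was left out. Pabpn1l turned with the columns as deposited (-0.045), median ratio scaling (-0.048), quantile normalization (-0.058) and the length trend removed (-0.0011). Median ratio scaling, quantile normalization and leaving out Trim21 reads lower the table as a whole. The cause of the remaining turns was not tested. Paip1, Pabpc1l and Pabpc4 kept their direction under all alternatives. Mean levels in RPKM moved by more than the SD of the group in 13 of 96 cases, all under median ratio scaling or with Trim21 reads left out. Depth limits Pabpc1 and Pabpn1, whose values rest on 0 to 46 reads a library.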
